A study of Homo sapiens with 8 samples.

Results

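Kinesins are motor proteins that convert the energy of ATP into movement along microtubules, and a subset of them builds and moves the mitotic spindle. The mitotic kinesins described here were 10 genes, *KIF4A*, *KIF11*, *KIF14*, *KIF15*, *KIF18A*, *KIF20A*, *KIF20B*, *KIF22*, *KIF23* and *KIF2C*, taken by symbol from 22439 named genes of a two-colour human expression array. They were read by 14 of 58201 probes. A single probe read 6 of them, and 2 probes each read *KIF4A*, *KIF20B*, *KIF22* and *KIF23*. All 14 probes were well above background in both channels on all 8 arrays, so no member was lost to the filter on dim probes.

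The 8 arrays compared treated with control RNA of the same lung cancer cell line, with control RNA in the green (Cy3) and treated RNA in the red (Cy5) channel. In 2 arrays, the lung squamous cell carcinoma (LUSQ) lines EBC-1 and SK-MES-1 had been transfected with *miR-150-3p*, the passenger strand of the *miR-150* duplex, and the control is called both mock and not transfected in the labels. In 3 arrays, the small cell lung cancer line SBC-3 had received 1 of 3 siRNAs against *DONSON*, a replication fork protein (siDONSON-1, siDONSON-2 and siDONSON-3), against untransfected SBC-3. In 3 arrays, the lung adenocarcinoma line A549 had been edited with CRISPR/Cas9 at *LOXL2*, a lysyl oxidase that crosslinks collagen (A549-GE1, A549-GE2 and A549-GE3), against unedited A549. Since the *miR-150-3p* arrays hold 2 cell lines and the siDONSON arrays 3 siRNAs, the spread in these groups includes those differences. Each line with *miR-150-3p* and each siRNA had 1 array, with no replicate culture. Nothing in the labels says how the edited samples differ or that they came from separate cultures, so their spread may be technical. A p-value here rests on these spreads between arrays. No dye was swapped. A dye effect that is particular to a probe and an effect of treatment cannot be told apart, on 1 array or in a group mean.

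All 8 arrays shared 1 slide, with 27229 to 31785 probes counted and no saturated spot. The targeted genes fell in the samples labelled for them. *DONSON* had log2 ratios of -2.15, -1.79 and -2.11 with the 3 siRNAs, and *LOXL2* had -2.49, -2.67 and -2.59 in the edited A549 samples. In the control channel, the squamous markers *KRT5*, *KRT6A* and *DSG3* were not well above background on any array, and EBC-1 showed only *SOX2* of the 6 squamous markers. SK-MES-1 showed *TP63*, *KRT14* and *SOX2*, but so did SBC-3 on 2 of 3 arrays. SBC-3 showed *NEUROD1*, *CHGA* and *SYP* of 6 neuroendocrine markers, without *INSM1*, and A549 showed *CHGA* and *UCHL1*. A549 showed *NAPSA*, *KRT7* and *MUC1* of 6 adenocarcinoma markers on every array, with *SFTPC* on 2 and without *NKX2-1* and *SFTPB*, but EBC-1 passed *NAPSA*, *KRT7* and *MUC1* too, and SK-MES-1 these with *SFTPC*. The squamous and adenocarcinoma lists therefore did not separate the lines. Of the blood and stromal markers, the leukocyte gene *PTPRC* and the stromal gene *COL1A1* passed on every array. *CD3E* passed in EBC-1 and on all 3 SBC-3 arrays, whereas *HBB* and *PECAM1* passed on none.

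The members divide by what their proteins do. *KIF11* (Eg5) pushes the spindle poles apart, and *KIF15* can maintain a bipolar spindle beside it. *KIF18A* dampens the movement of chromosomes at the plus ends of microtubules, and *KIF2C* (MCAK) takes microtubules apart at the centromere. *KIF4A* and *KIF22* are chromokinesins, which ride on chromosome arms. *KIF14*, *KIF20A*, *KIF20B* and *KIF23* act at the central spindle and midbody when the daughter cells part. Their transcripts are known to peak late in the cell cycle, from G2 into mitosis.

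The first question was how the members stood in LUSQ cells given *miR-150-3p*. A log2 ratio below -1 is less than 50% of the control signal. In EBC-1, all 10 members lay below -1 with the probes of each gene averaged, against 6.04% of the 14759 genes measured on that array. Their median was -1.45, where the median of all genes was 0.05. In SK-MES-1, none of the 10 lay below -1, against 1.27% of 16176 genes, and the median was -0.11 with 0.02 for all genes. A pooled culture gives no way to tell fewer cells that express a gene from less RNA per cell.

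The pair that separates the poles comes first. *KIF15* had a log2 ratio of -2.57 in EBC-1, or 16.8% of the control signal, and 0.05 in SK-MES-1. Only 0.203% of the genes measured in EBC-1 were lower. *KIF11* had -1.82 in EBC-1, or 28.3% of control, and -0.29 in SK-MES-1. For both genes the EBC-1 value was the lowest of the 8 arrays.

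The kinesins that act on chromosome position followed the same order between the lines. *KIF18A* had a log2 ratio of -1.81 in EBC-1 cells and -0.11 in SK-MES-1 cells. *KIF2C*, the microtubule depolymerase, had -1.45 in EBC-1 cells and -0.23 in SK-MES-1 cells. Of the chromokinesins, *KIF4A* had -1.32 and -0.07. *KIF22* had -1.05 in EBC-1, among the smallest shifts of the family there, and 0.0037 in SK-MES-1.

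The cytokinesis group ran from -1.59 to -1.02 in EBC-1 cells. *KIF14*, which binds the kinase citron at the midbody, had a log2 ratio of -1.59 in EBC-1 cells and -0.32 in SK-MES-1 cells, the lowest member in that line. *KIF20A* (MKLP2), which carries the chromosomal passenger complex to the central spindle, had -1.44 and -0.11. *KIF23* (MKLP1), the motor subunit of centralspindlin, had -1.44 in EBC-1 cells and 0.09 in SK-MES-1 cells, the highest member in that line. *KIF20B* stood nearest to the threshold in EBC-1 at -1.02, with -0.12 in SK-MES-1. The *KIF20B* value was a mean of 2 probes that differed by 1.21 in EBC-1, at -1.62 and -0.42. These probes target different reference transcripts. The paired probes of *KIF4A*, *KIF22* and *KIF23* differed by at most 0.30 on any array. With only the brightest probe of each gene, *KIF20B* at -0.42 and *KIF22* at -0.98 no longer lay below -1 in EBC-1.

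**Figure D1:**
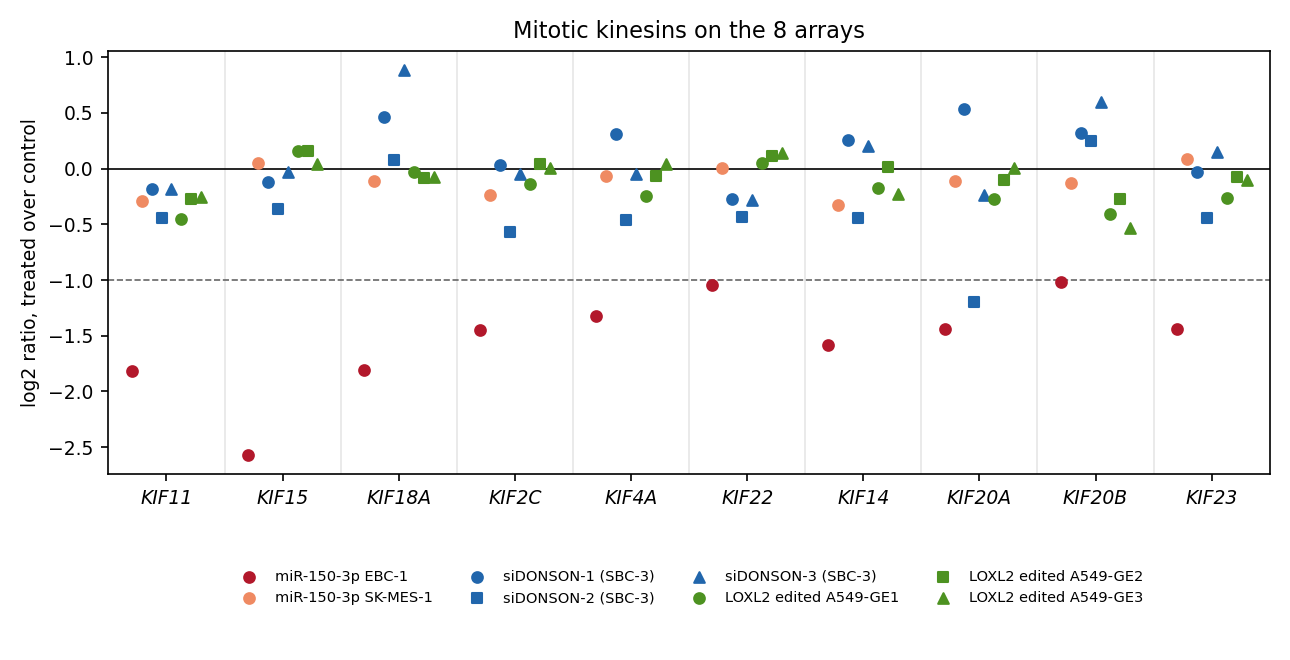
Log2 ratio of treated over control signal (vertical axis) for each of the 10 mitotic kinesins on each of the 8 arrays, 1 point per array, coloured by cell line, with 0 as a solid and -1 as a dashed line. The EBC-1 points lie between -2.57 and -1.02 and are the lowest of each gene, while the SK-MES-1 points lie between -0.32 and 0.09.

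The scanner software gives each ratio an error. That error was 0.16 to 0.32 on the log2 scale for the members in EBC-1, and all 10 lay below 0 outside their 95% limits, as did 19.8% of all genes. In SK-MES-1 the error was 0.14 to 0.21, and 0 of 10 lay outside on either side, against 18.5% of all genes. This error describes 1 hybridisation and holds no replicate culture. When background was instead corrected with normexp and the dyes balanced by loess, the EBC-1 median was -0.83 and 3 members lay below -1, against 1.75% of all genes. All 10 were still below 0, in another order. *KIF2C* was lowest at -1.35, followed by *KIF11* and *KIF23* at -1.02, while *KIF15* was at -0.82, *KIF18A* at -0.31 and *KIF20B* at -0.22. That setting adds an offset of 50 to each signal, which by construction draws the ratios of dim probes towards 0. It changes background and dye correction together, so their parts cannot be told apart.

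**Figure D2:**
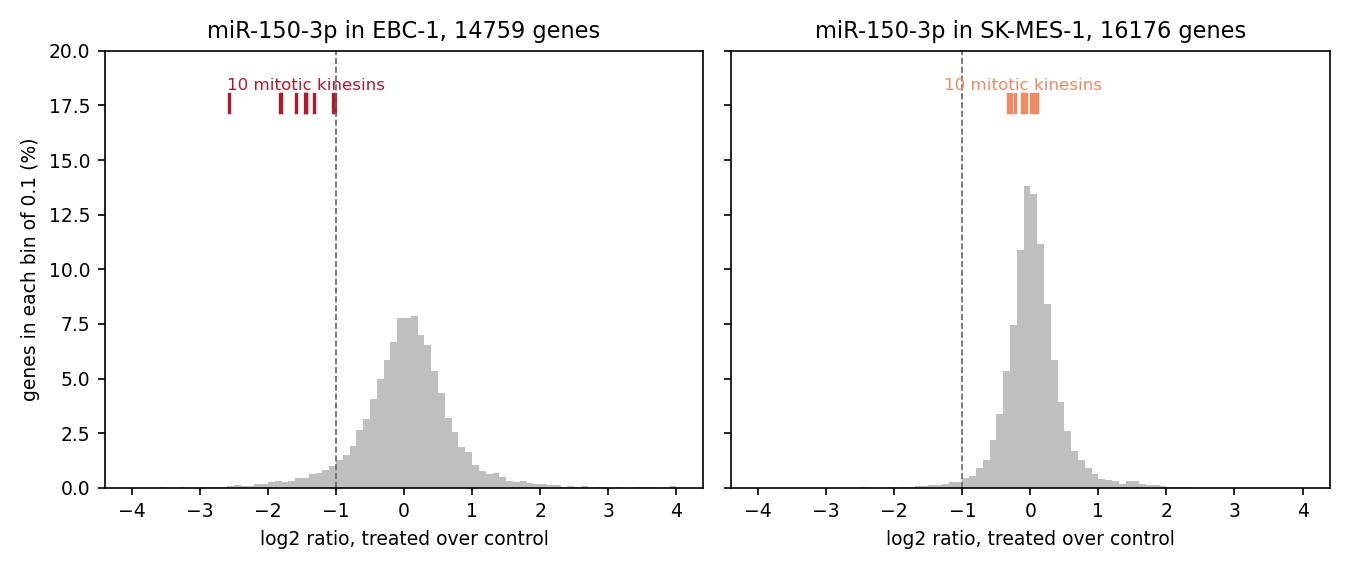
Distribution of log2 ratios over all genes measured (grey bars, percent of genes in each bin of 0.1; values beyond 4 or -4 are in the end bins) with the 10 mitotic kinesins as coloured ticks, for *miR-150-3p* in EBC-1 (left) and SK-MES-1 (right). The EBC-1 ticks all lie left of the dashed line at -1, where 6.04% of genes lie, and the SK-MES-1 ticks lie within the bulk of all genes.

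A model of all 8 arrays (limma, a mean for each of the 3 groups, Benjamini-Hochberg adjustment over all genes) gave no call for any member in the mean over both LUSQ lines. The mean log2 ratio was below 0 for all 10 members, and 7 of them were below 0 on both arrays. Of all genes measured, 45.9% lay below 0 on the EBC-1 array, and 47.5% did on the SK-MES-1 array. Their share below 0 in the mean, or on both arrays, was not computed. The median of the means was 0.04 for all genes tested. Member means ranged from -1.26 (SE 0.48, adjusted p = 0.133 in limma) for *KIF15* to -0.52 (SE 0.21, adjusted p = 0.148 in limma) for *KIF22*. The smallest adjusted p in limma was 0.074 for *KIF11*, at -1.05 (SE 0.30). *KIF14* was next at -0.96 (SE 0.28, adjusted p = 0.081 in limma). Across all genes 2.9% were called lower and 2.47% higher, and the unadjusted p was below 0.05 in the lower direction for 8 of 10 members against 14.9% of genes. The SD between the 2 arrays was 0.63 to 1.86 for the members. With the spread of these 2 arrays alone, 0 of 14229 genes were called lower and 0 higher. Every call for this group therefore rests on the spread shared with the siDONSON and *LOXL2* arrays. Without the SK-MES-1 array, 9 of 10 members were called lower, all but *KIF20A*, against 10.8% of genes, on the assumption that the lone EBC-1 array varies like the other groups. Without the EBC-1 array none was called.

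The difference between the 2 lines was then tested itself, in a limma model with a mean for each line, chosen after the values had been seen. Its 4 residual degrees of freedom come from the siDONSON and *LOXL2* arrays, whose spread the single arrays are assumed to share. *KIF15* was lower in EBC-1 cells than in SK-MES-1 cells by a log2 difference of -2.62 (SE 0.21, adjusted p = 0.0119 in limma). *KIF11* differed by -1.53 (SE 0.21, adjusted p = 0.0292 in limma) and *KIF22* by -1.05 (SE 0.18, adjusted p = 0.0421 in limma). These 3 of 10 members were called, against 1.79% of 13483 genes called lower in EBC-1. The other 7 differences ran from -1.69 for *KIF18A* to -0.89 for *KIF20B* and were not called. *KIF23* missed the threshold narrowly at -1.53 (adjusted p = 0.0588 in limma). *KIF20A* was least certain at -1.33, with a 95% interval of -3.01 to 0.35. Its SD among the siDONSON arrays was 0.87, the highest of the 10.

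**Figure D3:**
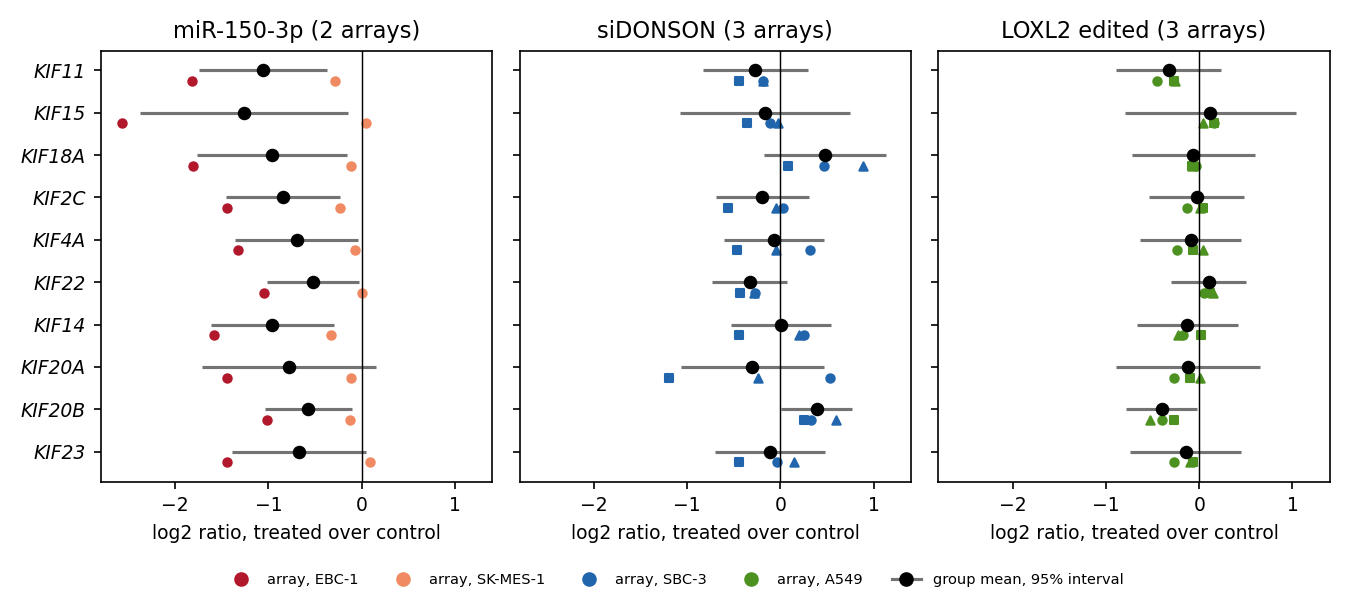
Group mean log2 ratio (black points) with its 95% interval from limma (grey lines) for each mitotic kinesin in the 3 comparisons, with each array's value drawn below it in the colour of its cell line and, for the 3-array groups, circles, squares and triangles for the arrays numbered 1, 2 and 3. The *miR-150-3p* means lie at -0.52 or lower between 2 far-apart arrays, while the siDONSON means lie between -0.33 and 0.48 and the *LOXL2* means between -0.40 and 0.12.

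Members that share a transcription programme often share promoter elements, so the sequence around the start of 7 members is shown. Promoters of genes that peak in G2 and mitosis are known for the cell cycle genes homology region (CHR), bound by the MuvB complex, and for CCAAT boxes, bound by NF-Y. The reference table from RefSeq (build GRCh38.p14) held a window of 250 bases before to 50 bases after the start for all 10 members, with 2 windows for *KIF22*, among 35116 windows. The motifs searched on both strands were TTTGAA and TTCGAA for the CHR, TTTAAA as a CHR-like variant, CCAAT, and GGCGGGAA and TTGGCGC for E2F. The stretches below, 80 bases before to 20 after the start, are from members of each role, and capitals mark these motifs or their reverse complements.
*KIF11* (chr10:92593050-92593149, plus strand): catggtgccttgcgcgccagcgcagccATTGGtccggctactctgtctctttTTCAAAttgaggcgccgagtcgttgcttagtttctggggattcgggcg
*KIF15* (chr3:44761714-44761813, plus strand): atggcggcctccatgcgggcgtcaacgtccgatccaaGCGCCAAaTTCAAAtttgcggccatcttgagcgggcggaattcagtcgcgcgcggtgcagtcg
*KIF18A* (chr11:28108137-28108236, minus strand): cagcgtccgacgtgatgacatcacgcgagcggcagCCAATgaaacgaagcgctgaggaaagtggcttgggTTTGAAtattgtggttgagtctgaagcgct
*KIF2C* (chr1:44739757-44739856, plus strand): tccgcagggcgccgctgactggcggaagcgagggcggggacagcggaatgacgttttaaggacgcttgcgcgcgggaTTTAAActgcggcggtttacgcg
*KIF4A* (chrX:70290024-70290123, plus strand): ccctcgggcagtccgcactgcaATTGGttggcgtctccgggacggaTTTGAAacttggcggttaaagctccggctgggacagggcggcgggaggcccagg
*KIF22* (chr16:29790671-29790770, plus strand): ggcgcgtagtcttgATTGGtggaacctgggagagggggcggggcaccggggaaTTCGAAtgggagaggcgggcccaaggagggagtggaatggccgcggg
*KIF23* (chr15:69414269-69414368, plus strand): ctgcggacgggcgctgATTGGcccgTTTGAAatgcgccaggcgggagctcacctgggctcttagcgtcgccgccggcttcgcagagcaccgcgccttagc

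A CHR form, TTTGAA or TTCGAA, was present in the windows of 8 of 10 members, against 16.4% of all 35116 windows. The 2 without it, *KIF20A* and *KIF2C*, held TTTAAA, found in 12.2% of all windows. CCAAT was present in 8 of 10 members against 34.6% of windows, and the CHR with CCAAT in 7 of 10 against 6.38%. CCAAT lay upstream of the CHR in all 7. The gap between them was 18 to 34 bases in *KIF11*, *KIF14*, *KIF18A*, *KIF22* and *KIF4A*, 4 bases in *KIF23* and at least 117 bases in *KIF20B*. *KIF15* had no CCAAT, and its CHR lay beside TTGGCGC, which 3.04% of all windows held. *KIF18A* held overlapping copies of TTGGCGC farther upstream. GGCGGGAA, found in 3.16% of windows, was in none of the 10. *KIF2C*, with neither CHR form nor CCAAT, lay at -1.45 in EBC-1, close to the median of the family. A match describes letters in a window and shows no binding.

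**Figure D4:**
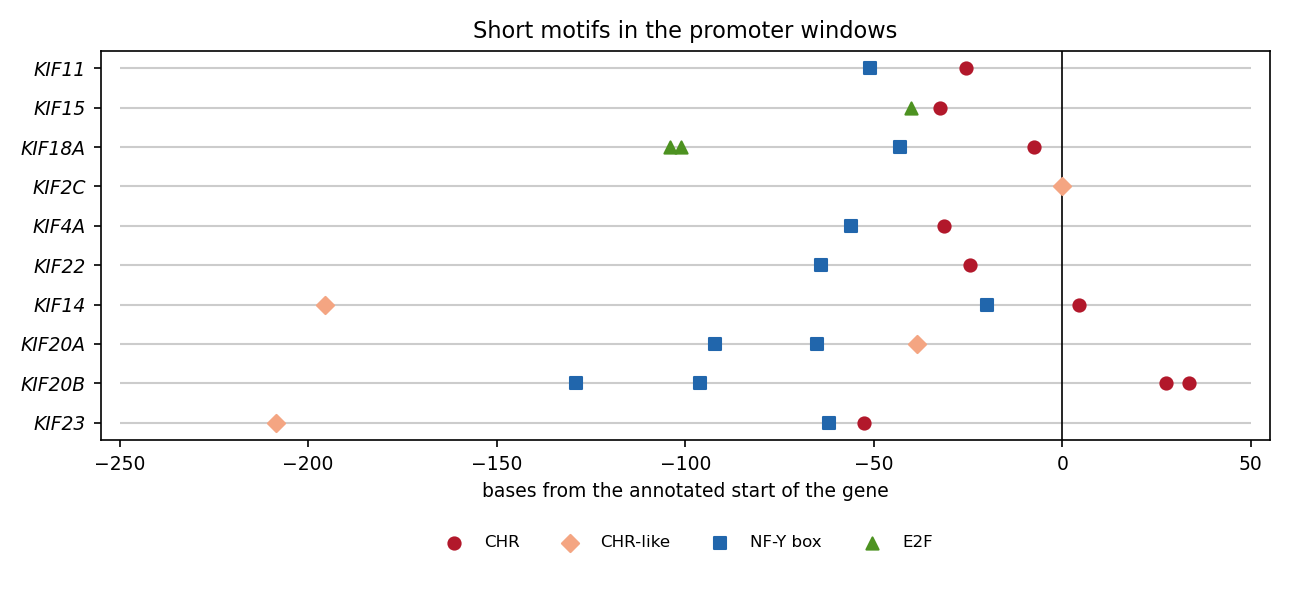
Position of each motif (horizontal axis, bases from the annotated start of the gene) in the promoter window of the 10 mitotic kinesins, with CHR for TTTGAA or TTCGAA, CHR-like for TTTAAA, NF-Y box for CCAAT and E2F for TTGGCGC, and the window with the more upstream start for *KIF22*. In 7 members an NF-Y box lies to the left of a CHR, and *KIF20A* and *KIF2C* hold the CHR-like form instead.

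The other kinesins give the family a frame. Of 7 further mitotic kinesins, 5 were measured. *CENPE*, the kinetochore motor, had log2 ratios of -1.87 in EBC-1 cells and -0.17 in SK-MES-1 cells. *KIFC1*, which clusters centrosomes, had -1.53 and -0.17. *KIF24* had -0.89 and -0.03, and *KIF2A* had -0.42 and -0.05. *KIF18B*, which acts on astral microtubules, had 0.02 in EBC-1 cells, where its control signal was not well above background, and -0.90 in SK-MES-1 cells. It alone of the 5 was lower in SK-MES-1 than in EBC-1. None of the 5 was called in any comparison. *KIF2B* was not well above background, and *KIF4B* had no named probe.

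Kinesins of interphase transport and other roles outside mitosis were listed too. In EBC-1 cells 2 of 21 measured were below -1, against 6.04% of all genes, and their median was 0.17. Of 20 tested over both LUSQ lines, *KIF5B*, the ubiquitous conventional kinesin, fell with a mean log2 ratio of -0.86 (SE 0.16, adjusted p = 0.0358 in limma), and *KIF26A* fell with -0.73 (SE 0.16, adjusted p = 0.0436 in limma). The other 18 were not called. Of all genes, 2.9% were called lower.

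The proteins that the members carry or answer to were listed next. Of 22 such partners and regulators, 20 were measured in EBC-1. Of these, 14 were below -1, against 6.04% of all genes, and the median of the 20 was -1.40. In SK-MES-1, 0 of 21 were below -1, against 1.27% of all genes, and the median was -0.06. Over both lines, *CIT*, the citron kinase that *KIF14* binds, fell with a mean of -1.76 (SE 0.41, adjusted p = 0.0496 in limma), from values of -2.75 in EBC-1 cells and -0.78 in SK-MES-1 cells. *KNSTRN*, the small kinetochore-associated protein, fell with -1.52 (SE 0.25, adjusted p = 0.0278 in limma), from -2.14 and -0.89. *NEK9*, a kinase upstream of *KIF11*, rose with 0.49 (SE 0.10, adjusted p = 0.0370 in limma). *NEK9* was also called higher with siDONSON at 0.41 and in *LOXL2* edited A549 at 0.33, so that all 8 arrays lay between 0.31 and 0.55, with treated RNA always in Cy5. The other 17 of 20 tested were not called in the LUSQ lines. The calls over both lines, those of *KIF5B* and *KIF26A* included, rest on the spread shared with the other groups. No gene was called with the spread of the LUSQ arrays alone.

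The second comparison asked how the members stood after knockdown of *DONSON* in SBC-3 cells. No member was called in limma over the 3 siRNA arrays, where 3.21% of genes were called lower and 4.01% higher. The group means ran from -0.33 to 0.48, with interval bounds from -1.08 to 1.14. The median of the member means was -0.14, beside 0.03 for all genes tested. The siRNAs gave the family different medians. These were 0.14 with siDONSON-1, -0.44 with siDONSON-2 and -0.04 with siDONSON-3.

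*KIF20A* spread most, at 0.53, -1.20 and -0.24 with siDONSON-1, siDONSON-2 and siDONSON-3. It was the highest member on the first array and the lowest on the second, the only one of the 10 below -1 on an siDONSON array, against 2.84% of genes with siDONSON-2. With that siRNA 7 of 10 members lay below 0 outside the software's 95% limits, and 12.6% of genes did. With siDONSON-1, 4 members lay outside, all above 0, against 15.1% of genes above. With siDONSON-3, 1 lay outside below, against 11.8% of genes, and 2 above, against 13.6%. *KIF2C* had 0.03, -0.57 and -0.05, *KIF4A* had 0.31, -0.46 and -0.04, and *KIF14* had 0.26, -0.45 and 0.20. *KIF23* had -0.03, -0.45 and 0.15. In each of these genes siDONSON-2 gave the lowest value and the arrays stood on both sides of 0.

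The arrays stood on 1 side of 0 for 5 members. *KIF11* had -0.18, -0.44 and -0.19, *KIF15* had -0.12, -0.36 and -0.03, and *KIF22* had -0.27, -0.43 and -0.29. These 3 of 10 were below 0 on all arrays, against 18.6% of all genes. *KIF18A* had 0.47, 0.08 and 0.89, and *KIF20B* had 0.32, 0.25 and 0.60. These 2 of 10 were above 0 on all arrays, against 24.1%. Of the 10, *KIF20B* alone had an unadjusted p below 0.05, with a mean of 0.39 (SE 0.16, adjusted p = 0.180 in limma).

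The shared estimate of spread in this model includes the wide gap between EBC-1 and SK-MES-1. In a model of the 6 siDONSON and *LOXL2* arrays alone, added after the data had been seen, *KIF22* was called lower at -0.33 (SE 0.07, adjusted p = 0.0429 in limma), against 4.45% of genes called lower. *KIF20B* was not called there, at 0.39 (SE 0.10, adjusted p = 0.0554 in limma), nor was *KIF18A*, at 0.48 (SE 0.15, adjusted p = 0.0881 in limma). Among listed genes, *CDKN1A*, which encodes the cell cycle inhibitor p21, rose in the model of all 8 arrays with a mean of 0.85 (SE 0.17, adjusted p = 0.0305 in limma), from 0.86, 1.22 and 0.46. It was the single one of 18 regulators of cell cycle genes called with siDONSON. Its value was highest with siDONSON-2, the siRNA with the lowest member median, and a relation between these was not tested. Of 26 transport kinesins and light chains tested, *KLC2* alone was called, higher at 0.54 (SE 0.09, adjusted p = 0.0196 in limma). Of all genes in the model of all 8 arrays, 3.21% were called lower with siDONSON and 4.01% higher.

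The third comparison set *LOXL2* edited against unedited A549 cells. No member was called in limma, where 6.77% of genes were called lower and 7.58% higher. The group means ran from -0.40 to 0.12, with interval bounds from -0.89 to 1.04. The median of the member means was -0.11, beside 0.02 for all genes tested, and the 3 arrays differed little, with member medians of -0.21, -0.07 and -0.03.

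*KIF11* had log2 ratios of -0.46, -0.27 and -0.26, and *KIF20B* had -0.40, -0.27 and -0.53. *KIF18A* had -0.03, -0.08 and -0.07, and *KIF23* had -0.27, -0.07 and -0.10. These 4 of 10 were below 0 on all 3 arrays, against 33.4% of genes. *KIF15* had 0.15, 0.16 and 0.04, and *KIF22* had 0.05, 0.11 and 0.14. These 2 of 10 were above 0 on all 3 arrays, against 36.9%. Neither share stands clear of the share of all genes.

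The remaining members crossed 0. *KIF4A* had -0.24, -0.07 and 0.04, *KIF14* had -0.17, 0.02 and -0.23, *KIF20A* had -0.28, -0.10 and 0.01, and *KIF2C* had -0.14, 0.04 and 0.01. The lowest mean was that of *KIF20B* at -0.40 (SE 0.16, adjusted p = 0.144 in limma), the only one with an unadjusted p below 0.05. Its first probe had -0.67, -0.34 and -0.75 and its second -0.14, -0.21 and -0.31, the same direction at different size. In the model of the 6 siDONSON and *LOXL2* arrays, 2 members were called lower against 8.95% of genes. They were *KIF20B* (SE 0.10, adjusted p = 0.0371 in limma) and *KIF11*, at -0.33 (SE 0.09, adjusted p = 0.0499 in limma).

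Of the kinesins outside mitosis, *KIF1A*, a carrier of synaptic vesicle precursors, fell in edited A549 with a mean of -1.05 (SE 0.15, adjusted p = 0.0080 in limma). *KIF17*, a motor of dendrites and cilia, rose with 0.78 (SE 0.21, adjusted p = 0.0453 in limma). The other 24 of 26 tested were not called, where 6.77% of all genes were called lower and 7.58% higher. Of the regulators of cell cycle genes, *CDKN1A* rose with 0.94 (SE 0.17, adjusted p = 0.0135 in limma) and *E2F5* with 0.41 (SE 0.10, adjusted p = 0.0351 in limma).

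The level of each member in control cells was read from the green channel, as log2 signal less the 75th percentile of the array. The probes of different genes differ in brightness, so each gene is set only against itself across lines. SBC-3 and A549 had 3 control channels each, which may be 1 RNA, and EBC-1 and SK-MES-1 had 1 each, so the levels are given with no test. The ranges of A549 and SBC-3 did not overlap for any member. The share of all probes with separate ranges was not computed, so no weight is given to this. For the members, the SD between the channels of a line was up to 0.19 in SBC-3 and 0.10 in A549. The level was higher in A549 for 8 members and higher in SBC-3 for *KIF15* and *KIF2C*. Among 18251 probes above background on all arrays, the difference between these lines had a median of 0.02, with 15.1% of probes above 1 and 12.9% below -1.

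The gap between the highest and lowest line was widest for *KIF18A* at 2.55, *KIF14* at 2.25 and *KIF20A* at 2.23, although with normexp it was widest for *KIF11* at 1.87. *KIF20A* had a level of 2.08 ± 0.05 (SD, n = 3) in A549 and -0.14 ± 0.11 (SD, n = 3) in SBC-3, with 1.24 in EBC-1 cells and 1.27 in SK-MES-1 cells between them, the latter pair nearly equal. *KIF18A* had 1.51 ± 0.03 (SD, n = 3) in A549 and -0.57 ± 0.19 (SD, n = 3) in SBC-3. SK-MES-1 at -0.54 was within the SBC-3 range, and EBC-1 was lowest at -1.03. *KIF23* had 3.95 ± 0.05 (SD, n = 3) in A549, 2.79 in both LUSQ lines and 2.01 ± 0.02 (SD, n = 3) in SBC-3. *KIF14* was highest in A549 at 2.41 ± 0.02 (SD, n = 3), lower in SK-MES-1 at 1.30 and SBC-3 at 1.21 ± 0.03 (SD, n = 3), and lowest in EBC-1 at 0.16. *KIF20B*, also of the cytokinesis group, varied less, from 0.42 ± 0.07 (SD, n = 3) in A549 to -0.28 in EBC-1.

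The spindle pole pair took different orders. *KIF11* was highest in A549 at 3.59 ± 0.03 (SD, n = 3), then SBC-3 at 2.62 ± 0.03 (SD, n = 3), EBC-1 at 1.72 and SK-MES-1 at 1.55. *KIF15* was highest in SBC-3 at 2.46 ± 0.02 (SD, n = 3), then A549 at 1.74 ± 0.10 (SD, n = 3), SK-MES-1 at 0.67 and EBC-1 at 0.58, the last 2 within the spread seen among A549 channels. *KIF15* and *KIF11*, at -2.57 and -1.82 in EBC-1 after *miR-150-3p*, stood within 0.18 of SK-MES-1 in the control channel.

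*KIF2C* was lowest in A549 at 4.21 ± 0.03 (SD, n = 3) and lay between 4.89 and 5.14 in the other lines. *KIF4A* was similar in SK-MES-1 at 1.82 and A549 at 1.71 ± 0.06 (SD, n = 3), lower in EBC-1 at 1.12 and lowest in SBC-3 at 0.72 ± 0.04 (SD, n = 3). *KIF22* ran from 3.07 ± 0.04 (SD, n = 3) in SBC-3 to 3.46 in SK-MES-1. EBC-1 was below SK-MES-1 for 9 of 10 members, all but *KIF11*, by 1.14 for *KIF14*, 0.70 for *KIF4A*, 0.50 for *KIF18A* and at most 0.25 for the other 6. Those 6 include *KIF20A* and *KIF23*, nearly equal at log2 differences of -0.029 and -0.0001. Each of these lines had 1 array. The share of all probes lower in EBC-1 was not computed, so no weight is given to the count of 9.

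**Figure D5:**
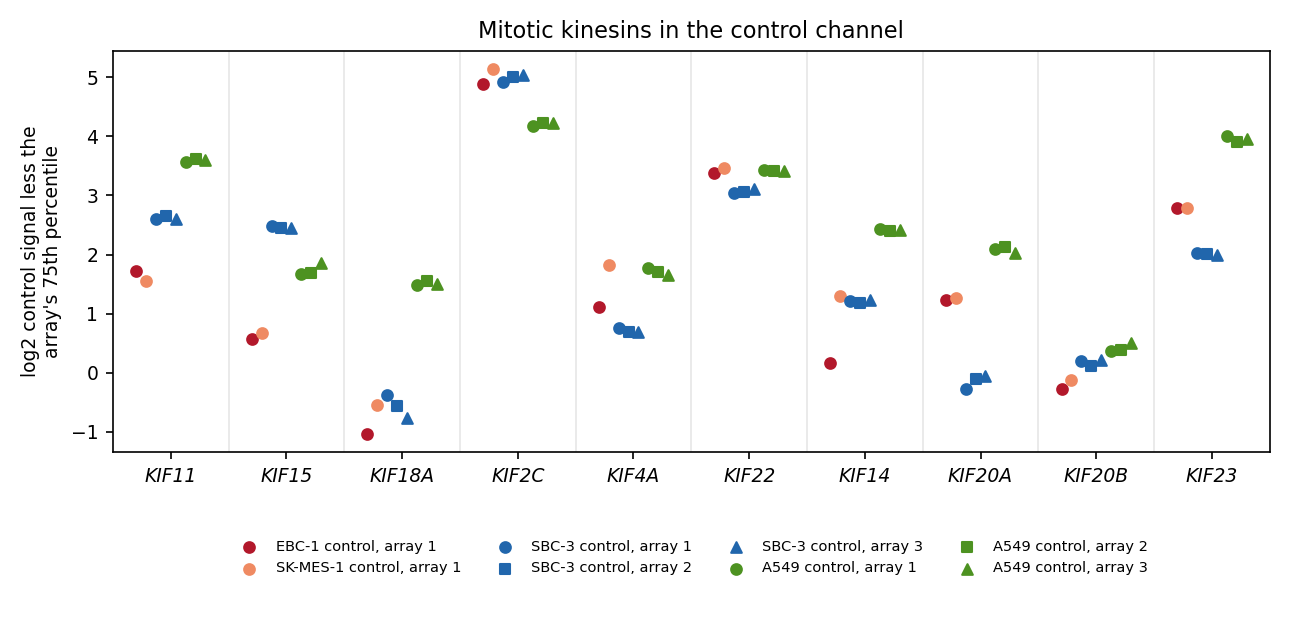
Control channel level of each mitotic kinesin (vertical axis, log2 signal less the 75th percentile of the array; 1 point per array, coloured by cell line), to be read within a gene and not between genes. A549 points lie above SBC-3 points for 8 genes, and below them for *KIF15* and *KIF2C*.

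Across the 8 arrays, the mean log2 ratio of the 10 members was compared with 12852 other genes measured on every array. The 5 genes with the highest Pearson r were *CDCA3* (0.998), *CCNB1* (0.991), *HJURP* (0.990), *BUB1B* (0.990) and *ANLN* (0.988). *CCNB1* is the mitotic cyclin B1, *BUB1B* a spindle checkpoint kinase, *HJURP* a chaperone of centromeric histone, *ANLN* the anillin of the cleavage furrow and *CDCA3* a trigger of mitotic entry. The 8 points share 1 slide and 1 dye orientation and come from 4 cell lines, and EBC-1 lies far from the rest. Without it r was 0.983 for *CDCA3*, 0.905 for *CCNB1*, 0.921 for *HJURP*, 0.902 for *BUB1B* and 0.968 for *ANLN*. With EBC-1, 2.06% of the genes compared had an r above 0.9. The 5 genes were chosen with EBC-1 included, and this share was not computed without it. *CDCA3* had log2 ratios of -1.42 in EBC-1, -0.17 in SK-MES-1, 0.14, -0.39 and 0.04 with the 3 siRNAs and -0.24, -0.10 and -0.13 in edited A549. Since *CDCA3* was chosen for its r with the member mean on these same arrays, it follows that mean by selection, which is no separate support.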

How the data were processed

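Total RNA of treated and control cells was labelled with Cy5 and Cy3 and hybridised to 8 two-colour Agilent arrays. The authors scanned and quantified them with Feature Extraction 12.1.1.1 (protocol GE2_1200_Dec17, design build GRCh37). The deposited files hold intensity values per spot that the software had background-subtracted, detrended and dye-normalized within each array, their log10 ratio with an error score, and flags. The series table, per the file headers and values, repeats that log10 ratio.

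Here log2 ratios were taken from the processed signals. Outlier spots (81 to 133 per array) were left out. Probes counted when either channel was well above background, and the probes of a gene were averaged. Of 58201 probes, 31104 were named through RefSeq accessions (table of GRCh38.p14). Group means were tested against 0 with limma 3.58.1 in R 4.3.3 (3 groups, 5 residual degrees of freedom, two-sided), with Benjamini-Hochberg adjustment over all genes and a threshold of 0.05. Single arrays were described against a log2 ratio of -1 and not tested. The script was checked on simulated data. Alternatives were normexp (offset 50, on median signals, since mean signals were not used here) with loess, other filters, probe choice, centring, outlier spots kept, other arrays subtracted, the spread of the group alone, a replicate block and each array left out. Precision is limited by the number of arrays. Named were all members, the other mitotic kinesins, the called genes with the 2 largest changes in each direction per list, the targeted genes and the 5 genes most like the members. *E2F5* was named after its values were seen. Some listed genes are not reported here. Members and lists were chosen with earlier results of these data known. Sites for *miR-150-3p* in transcripts were not analysed here.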

Additional observations from a re-analysis of the deposited data

Results flagged for a closer look

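Members that moved differently in the 2 LUSQ lines given *miR-150-3p* are given here. The limma test of the difference was chosen after the values had been seen, and it borrows its spread from the SBC-3 and A549 arrays. In that test SK-MES-1 exceeded EBC-1 by 2.62 for *KIF15* (adjusted p = 0.0119), by 1.53 for *KIF11* (adjusted p = 0.0292) and by 1.05 for *KIF22* (adjusted p = 0.0421), on the log2 scale. *KIF15* and *KIF22* were also on opposite sides of 0, at -2.57 and 0.05 and at -1.05 and 0.0037. *KIF23* was on opposite sides too, at -1.44 in EBC-1 cells and 0.09 in SK-MES-1 cells, and its difference of 1.53 missed the threshold in the same test (adjusted p = 0.0588). Each line had 1 array.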

How the results depend on the processing

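Limits were the number of arrays and the spread that all groups share. No member was called in the *miR-150-3p* mean under any alternative that kept both arrays. Leaving out 1 array gave 0 to 9 members called lower, 0 without EBC-1 and 9 without SK-MES-1, where the mean ran from -2.57 to 0.052 for *KIF15*, from -1.05 to 0.0037 for *KIF22* and from -1.44 to 0.091 for *KIF23*, each reversed without EBC-1. With normexp and loess the EBC-1 median moved to -0.83 with 3 members below -1, and 1 member, *KIF20B*, was called higher with siDONSON at 0.23 (adjusted p = 0.0444 in limma), against 6.69% of genes. With the spread of the group alone, 2 members were called lower in edited A549, *KIF11* (adjusted p = 0.0282 in limma) and *KIF20B* (adjusted p = 0.0234 in limma), against 18.4% of genes. The model without the *miR-150-3p* arrays called 1 member lower with siDONSON and 2 in edited A549. The members called lower in EBC-1 cells than in SK-MES-1 cells numbered 5 with both channels above background, adding *KIF18A* and *KIF23* to the 3, against 2.53% of genes, and 1, *KIF15*, with no filter on dim probes, against 0.303%. With the other arrays subtracted, which include EBC-1, the siDONSON means reversed to 0.27 for *KIF4A*, 0.35 for *KIF11*, 0.26 for *KIF15*, 0.083 for *KIF20A*, 0.25 for *KIF23* and 0.16 for *KIF2C*, and the *LOXL2* means to 0.23 for *KIF4A*, 0.25 for *KIF11*, 0.25 for *KIF14*, 0.035 for *KIF18A*, 0.37 for *KIF20A*, 0.19 for *KIF23* and 0.42 for *KIF2C*. With 1 siDONSON array left out the means ran from -0.25 to 0.13 for *KIF4A*, from -0.72 to 0.15 for *KIF20A* and from -0.24 to 0.058 for *KIF23*, above 0 only without siDONSON-2. *KIF14* with siDONSON went to -0.035 when centred and ran from -0.12 to 0.23 with 1 array left out, below 0 without siDONSON-1 or siDONSON-3. *KIF2C* in edited A549 ran from -0.066 to 0.025, above 0 without A549-GE1. None of these reversed values was called before or after, and the cause was not tested.

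The labels number siDONSON and edited A549 samples 1 to 3, but same-numbered arrays did not deviate together (r = -0.020, -0.014 and -0.0082). The values thus showed no pairing by number. Since the groups differ in cell line and treatment, this cannot exclude that same-numbered samples were handled together. A fit with the number as a replicate block called 0 members in either group and, over all genes, 108 lower and 99 higher with siDONSON, and 551 lower and 695 higher in edited A549. Control levels kept their direction between A549 and SBC-3 for 10 of 10 members under each of 3 other scalings, and between EBC-1 and SK-MES-1 for 10, 10 and, with normexp, 9, where *KIF11* turned.

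Calls over all genes depended more on the setting. For *miR-150-3p* they were 413 lower and 352 higher, against 726 and 809 with normexp, 655 and 443 with both channels above background, 134 and 64 with no filter, 154 and 71 with the other arrays subtracted, 0 and 0 with the spread of the group alone, 1 and 0 without EBC-1, and 1550 and 1273 without SK-MES-1. For siDONSON they were 464 and 579, against 524 and 967 with normexp, 2133 and 764 with no filter, 24 and 2 with the group alone, 222 and 243 without siDONSON-1 and 58 and 39 without siDONSON-3. For *LOXL2* they were 1051 and 1178, against 1327 and 1856 with normexp, 3914 and 1461 with no filter, 524 and 410 with the other arrays subtracted, 2852 and 3021 with the group alone, and 208 to 270 lower and 262 to 323 higher without 1 array. Median centring gave 478 and 300, 533 and 443, and 1154 and 1088.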

Other observations

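Tubulins, the subunits of the track that the kinesins walk on, were listed beside them. Of 11 measured, 2 were below -1 in EBC-1, where their median log2 ratio was -0.48, and 0 in SK-MES-1, where it was -0.08. The shares of all genes below -1 were 6.04% and 1.27%. None of the 11 was called over both LUSQ lines. With siDONSON, *TUBA4A* fell with a mean of -0.64 (SE 0.10, adjusted p = 0.0167 in limma) and *TUBG2* rose with 0.44 (SE 0.10, adjusted p = 0.0474 in limma). In *LOXL2* edited A549, *TUBB2B* fell with -1.05 (SE 0.11, adjusted p = 0.0023 in limma), from -1.20, -1.15 and -0.79.

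Of 18 regulators of cell cycle genes, 4 were below -1 in EBC-1 cells and 0 in SK-MES-1 cells, with medians of -0.23 and -0.07. The shares of all genes below -1 were 6.04% and 1.27%. Over both lines, *LIN52*, a subunit of the MuvB complex, was the single one called, lower at -0.79 (SE 0.17, adjusted p = 0.0430 in limma), from -1.07 in EBC-1 cells and -0.50 in SK-MES-1 cells. That call too rests on the spread shared with the other groups. *FOXM1* and *MYBL2*, activators of G2 and mitosis genes named after their values were seen, had -1.88 and -1.75 in EBC-1 cells, with -0.28 and -0.25 in SK-MES-1 cells. They were not called (adjusted p = 0.0743 and 0.0755 in limma).

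Of the marker lists, *KRT14*, a basal keratin, passed the threshold over both LUSQ lines (adjusted p = 0.0295 in limma), but its control signal was not well above background in EBC-1, so only the SK-MES-1 ratio of 1.13 was measured on both sides. *NAPSA* was called higher in edited A549 at 0.999 (SE 0.25, adjusted p = 0.0413 in limma). No neuroendocrine or blood and stromal marker that could be tested was called in any comparison. Of 6 neuroendocrine markers, 0 were tested with *miR-150-3p*, 3 with siDONSON and 3 in edited A549. Of 6 blood and stromal markers, 3, 3 and 2 were tested. With *miR-150-3p*, *DONSON* had log2 ratios of -1.02 in EBC-1 cells and -0.22 in SK-MES-1 cells and was not called (mean -0.62, adjusted p = 0.0875 in limma).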
